A study of Mus musculus with 3 samples.

Results

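The Hippo pathway and its Yap target genes were followed in sorted mouse pancreatic cells through 10 genes: Ccn1, Ccn2, Ankrd1, Axl, Amotl2, Lats2, Ajuba, Yap1, Wwtr1 and Tead1. Their probe sets were taken by symbol from the platform annotation, keeping for each gene the one with the highest mean, and all 10 were found among 19938 measured genes. There were 3 arrays, 1 per group, each of RNA from a pool of sorted cells of C57BL/6 mice more than 6 weeks old. Beta cells came from 3 untreated mice with wild-type Fbw7 (Fbw7 +/+) and the MIP-GFP transgene, which marks beta cells with a green fluorescent protein at all times. Fbw7-deleted ductal cells came from 6 mice of genotype Fbw7 F/F, and wild-type ductal cells from 6 mice of genotype Fbw7 +/+. Both kinds of ductal mice carried Ck19-CreERT, a tamoxifen-dependent Cre driven by the cytokeratin 19 promoter, and R26-LSL-YFP, a yellow fluorescent reporter switched on by Cre, and both were sampled 7 days after the last of 5 daily tamoxifen injections. For each array 30000 cells were sorted and 18 ng of RNA was amplified. The reporter marks cells in which Cre acted on the reporter locus, in any cell type that uses the cytokeratin 19 promoter. Beta and ductal samples differed at once in cell type, in reporter and in tamoxifen, and effects of these cannot be told apart.

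Hippo signalling is a kinase cascade that restrains growth and whose activity depends on cell contact and mechanical tension. The kinases Stk3 and Stk4 activate Lats1 and Lats2, which phosphorylate the coactivators Yap (Yap1) and Taz (Wwtr1) and keep them out of the nucleus; when the kinases are inactive, Yap and Taz enter the nucleus, bind Tead factors on DNA and switch on genes such as Ccn1, Ccn2 and Ankrd1. In the adult pancreas Yap protein is known from ducts and is largely absent from endocrine cells. The arrays measured RNA, so they do not show phosphorylation or the place of Yap protein in the cell.

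Tead factors recognise a short core in DNA, GGAATG, which reads CATTCC on the other strand. RefSeq promoter windows of assembly GRCm38.p6, from 250 bases before to 50 bases after an annotated start, were at hand for 8 of the 10 genes: Ccn1, Ankrd1, Axl, Amotl2, Lats2, Ajuba, Yap1 and Wwtr1. The core was searched in these letters on both strands. All 8 genes held at least 1 copy in a window, where 4481 of 27025 genes in the table (16.6%) did. Of 11 other Yap target genes with a window 2 held it. Of 8 genes that bind Yap or partner with Tead factors 5 did, of 13 kinase and upstream genes 3, of 18 early response genes 2, and of 4 genes of the Axl family and its ligands 0. The AP-1 motif TGACTCA, searched on both strands as well, was in the window of 0 of the 8 genes and in that of 5.95% of all genes. These are matches of letters and not measured binding sites. The promoters of the genes that differed most between the ductal arrays, Ccn1 (chr3:145649936-145650235, minus strand) and Axl (chr7:25788684-25788983, minus strand), are shown whole and 5′ to 3′, with the core in capitals.
Ccn1: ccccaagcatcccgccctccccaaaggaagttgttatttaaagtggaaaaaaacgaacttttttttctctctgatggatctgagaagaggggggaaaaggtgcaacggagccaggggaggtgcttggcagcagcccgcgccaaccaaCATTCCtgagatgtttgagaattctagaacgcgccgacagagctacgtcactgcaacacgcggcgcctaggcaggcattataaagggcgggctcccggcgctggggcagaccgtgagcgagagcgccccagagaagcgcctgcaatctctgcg
Axl: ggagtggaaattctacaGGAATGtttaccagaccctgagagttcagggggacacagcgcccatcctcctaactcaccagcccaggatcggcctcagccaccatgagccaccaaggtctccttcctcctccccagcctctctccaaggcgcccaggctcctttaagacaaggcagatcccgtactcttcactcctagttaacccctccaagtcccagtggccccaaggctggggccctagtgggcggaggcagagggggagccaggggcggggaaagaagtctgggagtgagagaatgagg

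The copy in the Ccn1 window began 103 bases upstream of the annotated start, and the copy in the Axl window 233 bases upstream. The copies of the other genes are shown with 10 bases on either side, so that their surroundings can be compared. Ankrd1 and Ajuba held 2 copies each, while Lats2 held its copy downstream, at base 5 counting the start as base 1, in 1 of its 2 windows, and both windows of Wwtr1 held the same copy.
Ankrd1, 210 bases upstream: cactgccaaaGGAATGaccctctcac
Ankrd1, 123 bases upstream: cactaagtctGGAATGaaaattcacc
Amotl2, 65 bases upstream: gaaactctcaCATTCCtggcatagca
Lats2, downstream at base 5: tgacgcccgtGGAATGccaacaatgt
Ajuba, 186 bases upstream: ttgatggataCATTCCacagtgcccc
Ajuba, 164 bases upstream: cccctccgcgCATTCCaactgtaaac
Yap1, 141 bases upstream: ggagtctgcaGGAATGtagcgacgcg
Wwtr1, 136 or 170 bases upstream by window: taaactcaaaGGAATGcagataggcg

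All levels are log2 intensities per probe set as the authors deposited them. The median of each array's single-gene probe sets served as a level floor, log2 5.30 in beta cells, 5.24 in deleted and 5.23 in wild-type ductal cells, and a gene entered a comparison when the higher of its levels lay above the floor. All 10 genes entered all 3 comparisons. With 1 array per group there was no replicate check and no test was possible. As a guide to measurement error, probe sets of the same gene were set against each other: between deleted and wild-type ductal cells their log2 differences lay 0.09 apart at the median and 0.61 apart at the 90th percentile over 595 genes. Between beta and wild-type ductal cells they lay 0.43 and 1.76 apart over 628 genes, and between beta and deleted ductal cells 0.42 and 1.57 apart over 621 genes. This spread lies within an array and leaves out the variation between mice. Of all 35556 probe sets, 47.2% were identical in the ductal arrays and 16.1% in all 3 arrays, so an identical value is common in this table. Of 2 probe sets of Fbxw7, the targeted gene, one read log2 4.95 in all arrays and the other 7.00 in beta cells, 5.71 in deleted and 6.32 in wild-type ductal cells; their place relative to the floxed exons is not known here, so they do not check the deletion.

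The sorted pools did not carry markers of 1 cell type only, and these levels stand beside every result below. In both ductal arrays mesothelial genes read high: 14 of 15 were above the floor, with a mean log2 level of 9.19 in deleted and 9.18 in wild-type cells, against 5.26 in beta cells. Mesothelium, the lining of the organ surface, is known to express cytokeratin 19. Duct markers averaged 8.39 in deleted and 7.01 in wild-type ductal cells over 13 genes; the duct surface gene Epcam read 7.22 in deleted cells and 5.42, just above the floor, in wild-type cells. Mesenchymal markers averaged 7.90 in deleted and 8.50 in wild-type ductal cells over 16 genes. Acinar markers, which belong to enzyme-secreting cells, averaged 10.36 in beta cells, 9.66 in deleted and 8.49 in wild-type ductal cells over 16 genes. Beta cell markers averaged 6.51 in beta cells, 4.71 in deleted and 4.42 in wild-type ductal cells over 12 genes. Of these 12, 8 were above the floor in beta cells, 3 in deleted and 3 in wild-type ductal cells. In the beta cell array the insulin gene Ins2 read 11.04, while Pdx1, a defining beta cell factor, was among those below the floor, at 5.14. The part of this mixture in the results below was not tested, and fewer cells of a type and less RNA per cell cannot be told apart in pooled RNA.

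**Figure D1:**
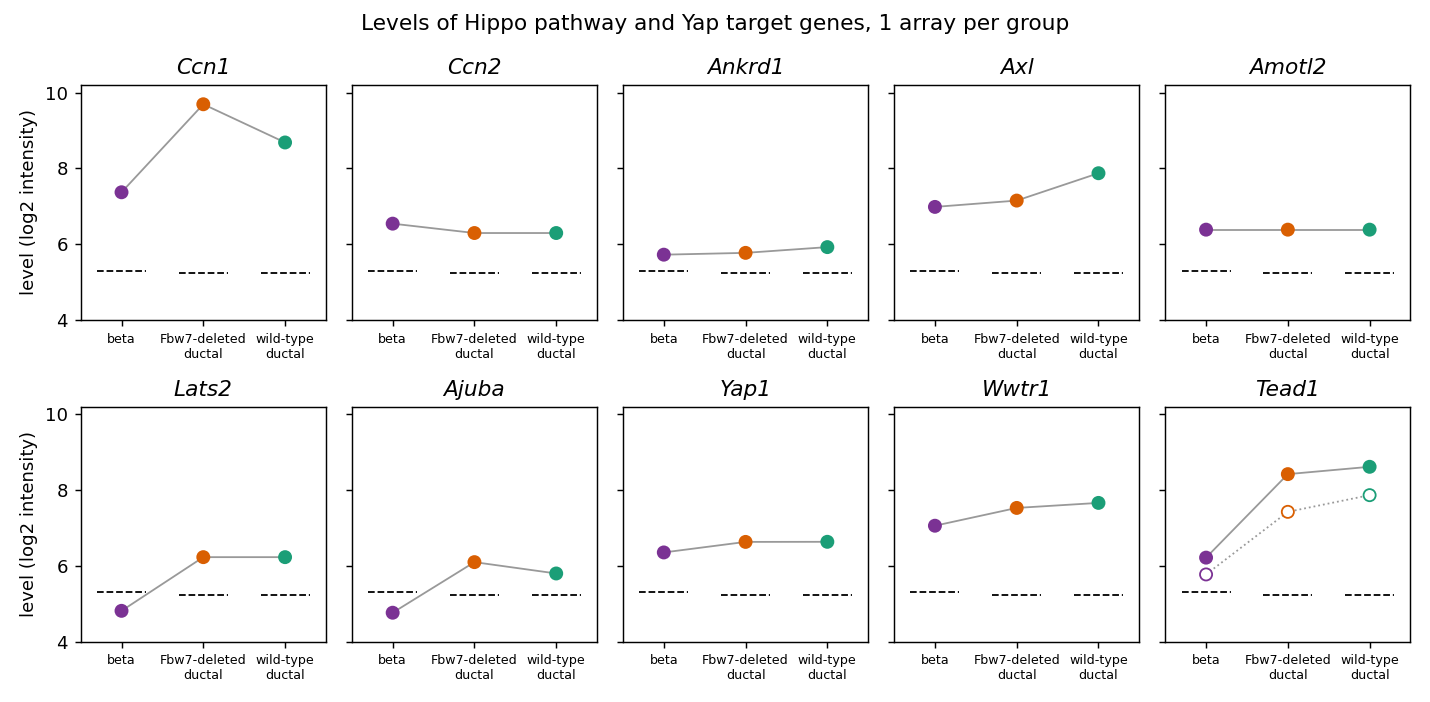
Level (log2 intensity, y axis) of the 10 genes in beta, Fbw7-deleted ductal and wild-type ductal cells, 1 array each; filled points are the probe set used, open points the second Tead1 probe set, and dashed lines the level floor of each array. Ccn1 stands at 7.37 in beta, 9.69 in deleted and 8.68 in wild-type ductal cells, Amotl2 has 1 value in all arrays, and Lats2 and Ajuba are below the floor in beta cells; heights of different genes are not comparable.

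Setting Fbw7-deleted against wild-type ductal cells asks whether Hippo output differs at the RNA level between these sorted pools. Ccn1, a secreted matrix protein and a direct Yap target, read log2 9.69 in deleted cells, against 8.68 in wild-type cells. It was 2.01-fold higher in deleted cells, a difference of 1.01, beyond the 0.61 that bounds 90% of gaps between probe sets of a gene. Of 10035 genes, 1.41% were at least as far on the higher side. The difference stayed past 2-fold, at most log2 1.14, over quantile normalization, centring, removal of a level trend and the other treatments of the values.

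Ccn1 stood alone among the target genes in this. Ccn2, the connective tissue growth factor and the closest relative of Ccn1 in the group, read 6.29 in deleted and 6.29 in wild-type cells, an identical value in the table. Ankrd1, a nuclear ankyrin repeat protein, read 5.77 in deleted and 5.92 in wild-type cells, a difference of -0.15, and 24.4% of genes were at least as far on the lower side. Amotl2, an angiomotin that holds Yap at cell junctions and is itself a Yap target, read 6.38 in both ductal arrays.

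Axl, a receptor tyrosine kinase and Yap target, went the other way. It read 7.15 in deleted cells, against 7.87 in wild-type cells, a difference of -0.72 or 1.65-fold lower, with 4.61% of genes at least as far on that side. The mesenchymal markers, read on the same arrays, were lower in 13 of 15 genes with a median of -0.67, where 35.4% of all genes were lower. Only Rgs5 was higher among these markers (0.66, or 0.07 against the floor). After quantile normalization Axl stood at -0.53.

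The regulators differed little between the ductal arrays. Yap1, which encodes Yap, read 6.63 in deleted and 6.64 in wild-type cells, a difference of -0.0025. Wwtr1, which encodes Taz, read 7.53 in deleted and 7.66 in wild-type cells, a difference of -0.13 as deposited and 0.03 after quantile normalization. Tead1, a DNA-binding partner of both coactivators, read 8.42 in deleted and 8.61 in wild-type cells (-0.19), and its second probe set 7.43 in deleted and 7.87 in wild-type cells (-0.44). Lats2, a kinase that inactivates Yap and is also one of its targets, read 6.23 in both. Ajuba, a LIM protein that inhibits Lats kinases, read 6.10 in deleted and 5.80 in wild-type cells, a difference of 0.30 with 5.92% of genes at least as far on the higher side.

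In all, 1 of the 10 genes was higher in deleted cells by 2-fold or more and 0 were lower by as much, where 1.43% of 10035 genes were higher and 1.81% lower by this measure. Of the 10, 2 were higher, 5 lower and 3 identical, and their median difference was -0.0013. Over all genes 16.4% were higher, 35.4% lower and 48.2% identical, with a median of 0. A single gene of 10 past the threshold is not a shift of the group.

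**Figure D2:**
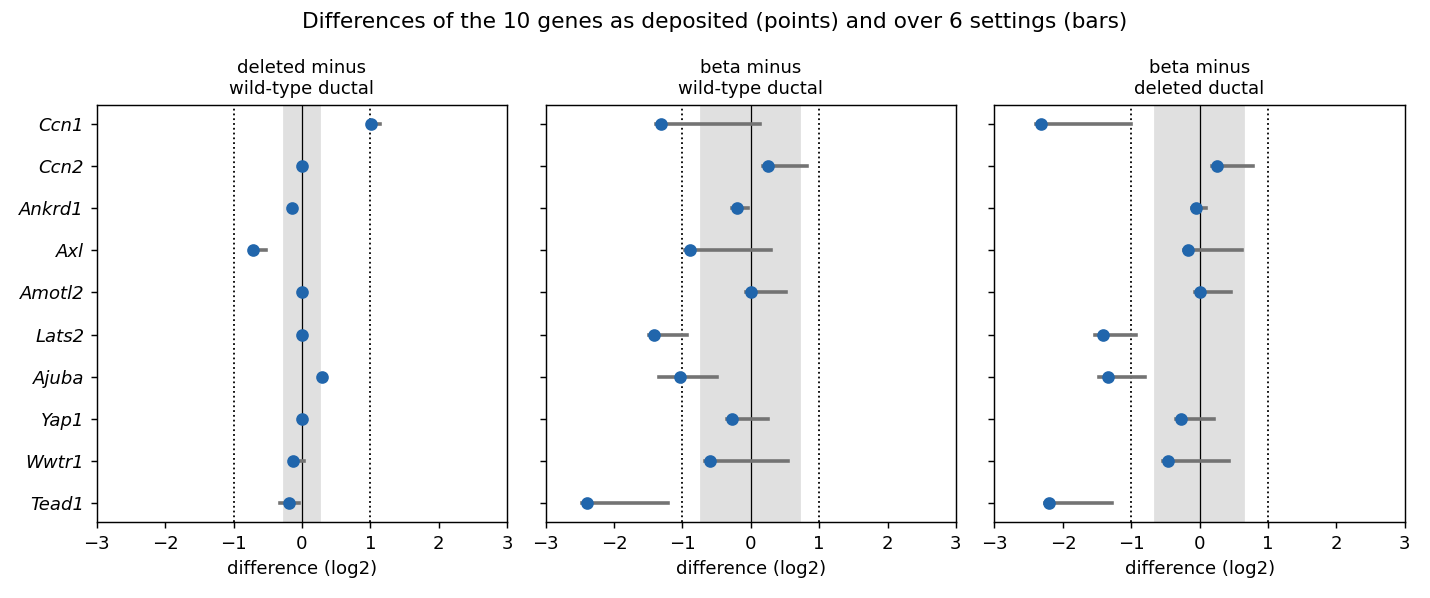
Difference (log2, x axis) of each gene as deposited (points) and its range over 6 settings of scaling, floor and probe set choice (bars) in the 3 comparisons; dotted lines mark 2-fold and the grey band 1 SD of a probe set's difference around 0, from pairs of probe sets of 1 gene (0.26, 0.72 and 0.66). Between the ductal arrays Ccn1 lies at 1.01 and Axl at -0.72, while in beta minus wild-type ductal cells the bars of Ccn1, Axl, Yap1 and Wwtr1 cross 0 and those of Tead1, Lats2 and Ajuba do not.

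The other genes of the pathway were read from lists. Over all 10035 genes 16.4% were higher, 35.4% lower and 48.2% identical in deleted cells. By 2-fold or more 1.43% were higher and 1.81% lower. Among kinase core and upstream genes, 13 of 15 measured genes were above the floor, and 1 was higher, 7 lower and 5 identical in deleted cells, with a median of -0.08 and 0 genes 2-fold apart. The lowest were Frmd6 at -0.62 and Taok1, a kinase that activates Stk3 and Stk4, at -0.53; the highest was Wwc1, an upstream scaffold also called Kibra, at 0.15. Stk3 had no single-gene probe set here. After quantile normalization the median of this list was 0.03. Genes that bind Yap or partner with Tead factors were identical in 7 of 9, with Tead3 at -0.68 and Amotl1 at -0.24.

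Of 13 other Yap target genes above the floor, 4 were higher, 4 lower and 5 identical in deleted cells, with a median of 0. The 2 genes that were 2-fold apart were both lower, opposite to Ccn1. Over all genes 16.4% were higher and 35.4% lower, with 1.43% higher and 1.81% lower by 2-fold or more. Thbs1, which encodes the matrix protein thrombospondin, read 7.74 in deleted and 8.95 in wild-type cells (-1.20). Tgm2, a transglutaminase that crosslinks matrix proteins, read 9.06 in deleted and 10.16 in wild-type cells (-1.09). Quantile normalization brought Thbs1 to -0.98 and Tgm2 to -1.05. The highest were F3, the clotting initiator tissue factor, at 0.36 and Gadd45b, a stress response gene, at 0.32.

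Ccn1 is also an early response gene that tissue dissociation can induce. Of 20 early response genes above the floor, 5 were higher, 9 lower and 6 identical in deleted cells, with a median of 0 and 0 genes 2-fold apart. They ran from Socs3 at -0.32 to Atf3 at 0.16, and the part of dissociation in the Ccn1 difference was not tested. Egr1 read 9.80 in deleted and 9.78 in wild-type cells, and Fos 9.48 in both. Beside these lists, 16.4% of all genes were higher, 35.4% lower and 48.2% identical in deleted cells. By 2-fold or more 1.43% were higher and 1.81% lower. Among cell markers, duct genes were higher in deleted cells in 12 of 12, with a median of 1.30 and 7 of them at least 2-fold higher. Acinar genes were higher in 12 of 14, with a median of 1.36 and 11 of them at least 2-fold higher, while Ctrc was lower (-1.21) and Bhlha15 identical. Mesothelial genes were higher in 8 and lower in 6 of 14, with a median of 0.03 and 0 of them 2-fold apart.

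**Figure D3:**
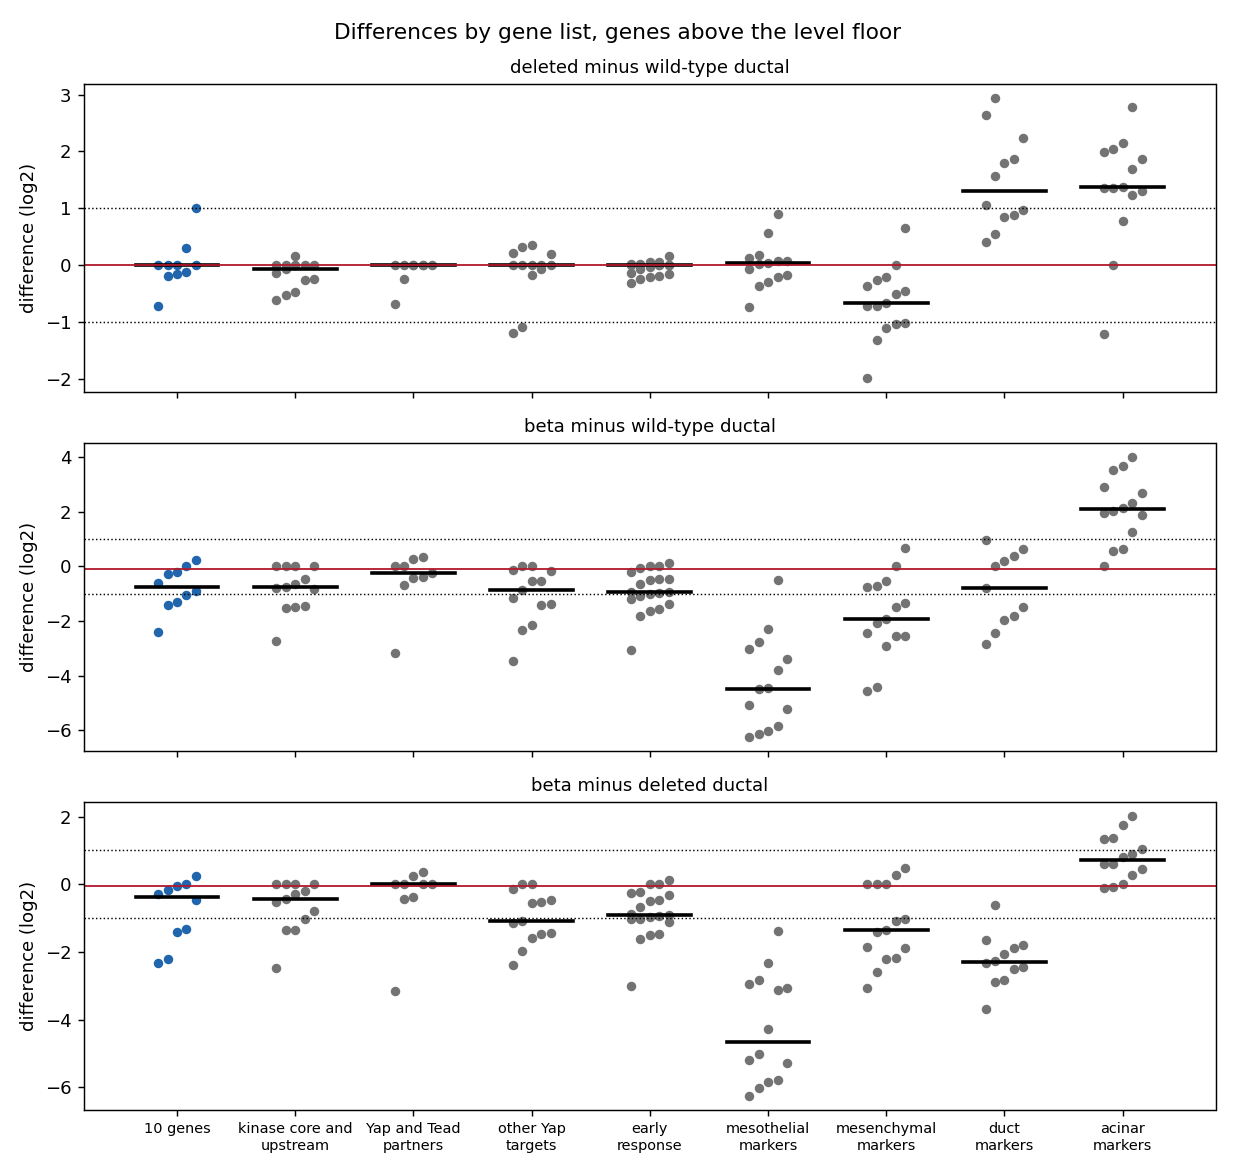
Differences (log2, y axis) of single genes above the level floor in the 10 genes (blue) and 8 other lists (grey) in the 3 comparisons; black bars are list medians, red lines the median of all genes and dotted lines 2-fold. Between the ductal arrays the 10 genes and the pathway lists sit around 0 (medians from -0.08 to 0), whereas duct (1.30) and acinar (1.36) markers sit higher and mesenchymal markers lower (-0.67).

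The comparison of beta with wild-type ductal cells asks how the pathway's genes are set in an endocrine cell. It uses the same wild-type array as the comparison above. Here the scaling decides much of the result, because the beta cell array had a narrower spread of levels: the SD over all probe sets was 1.57 in beta cells, 1.97 in deleted and 2.02 in wild-type ductal cells. Genes of high level mostly read lower in beta cells, and the level trend was log2 -1.45 at the mean level of Ccn1. As deposited, 6.37% of 11139 genes were higher in beta cells by 2-fold or more and 25.8% were lower by as much, against 10.6% higher and 17.9% lower after quantile normalization. For all genes together the median was -0.11 as deposited, 0.09 after quantile normalization and 0.02 with the level trend removed.

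Tead1 was the member furthest apart. It read 6.22 in beta cells, against 8.61 in wild-type ductal cells, a difference of -2.40 or 5.26-fold lower, and 6.80% of genes were at least as far on that side. The second Tead1 probe set read 5.78 in beta and 7.87 in wild-type ductal cells (-2.09). As deposited, both differences exceed the 1.76 that bounds 90% of gaps between probe sets. Relative to the level trend Tead1 stood at -1.22, and after quantile normalization at -1.65. Its direction did not turn under these scalings, but both values lie within that 1.76, which was itself taken from deposited values.

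Lats2 and Ajuba read below the floor in the beta cell array and above it in the ductal arrays. Lats2 read 4.82 in beta cells, against 6.23 in wild-type ductal cells, a measured difference of -1.42 and, against the floor, at least 1.90-fold lower. Ajuba read 4.77 in beta and 5.80 in wild-type ductal cells, a measured difference of -1.03 and at least 1.41-fold lower against the floor. With the level trend removed they stood at -1.48 and -1.34. All these differences lie within the 1.76 that bounds 90% of gaps between probe sets.

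The coactivator genes were above the floor in beta cells. Yap1 read 6.36 in beta and 6.64 in wild-type ductal cells, a difference of -0.28 as deposited, 0.26 after quantile normalization and 0.24 with the level trend removed. Wwtr1 read 7.06 in beta and 7.66 in wild-type ductal cells, a difference of -0.60 as deposited, 0.37 after quantile normalization and 0.54 with the trend removed. No direction can therefore be given for either gene.

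Among targets, Ccn1 read 7.37 in beta and 8.68 in wild-type ductal cells. It was 2.48-fold lower as deposited (-1.31), at -0.17 after quantile normalization and at 0.14 with the level trend removed, so its direction rests on the scaling. Axl read 6.98 in beta and 7.87 in wild-type ductal cells, a difference of -0.89 that turned to 0.09 and 0.30 under the same treatments. Ankrd1 read 5.72 in beta and 5.92 in wild-type ductal cells (-0.20). Ccn2 was the member that read higher in beta cells, at 6.54 against 6.29 in wild-type ductal cells (0.25), with a range of 0.18 to 0.82 over the settings. Amotl2 read 6.38 in both. Endothelial cells and fibroblasts are known sources of Ccn2. Of 12 endothelial markers 10 were above the floor in beta cells and 4 in wild-type ductal cells. Of the 10 that entered 8 were higher in beta cells, where 27.3% of all genes were. Pecam1, Cdh5, Emcn, Eng, Egfl7 and Vwf entered through the beta cell array, which set their direction. Of the 4 above the floor in wild-type ductal cells, Kdr (0.51) and Plvap (0.05) were higher and Esam (-0.61) and Cd34 (-3.49) lower. Mesenchymal markers were lower in beta cells in 13 of 15, with a median of -1.92, where 53.8% of all genes were lower. The part of endothelial cells or fibroblasts in the Ccn2 level was not tested.

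By measured levels 4 of the 10 genes (Tead1, Lats2, Ccn1 and Ajuba) lay 2-fold or more lower in beta cells and 0 higher. Lats2 and Ajuba entered through the ductal array, and with their beta cell levels raised to the floor the count was 2, Tead1 and Ccn1. The background was 25.8% lower and 6.37% higher, and with 10 genes a count of 4 says little beyond it. The median of the 10 was -0.75, with 8 lower, 1 higher and 1 identical, where 53.8% of all genes were lower, 27.3% higher and 18.9% identical.

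**Figure D4:**
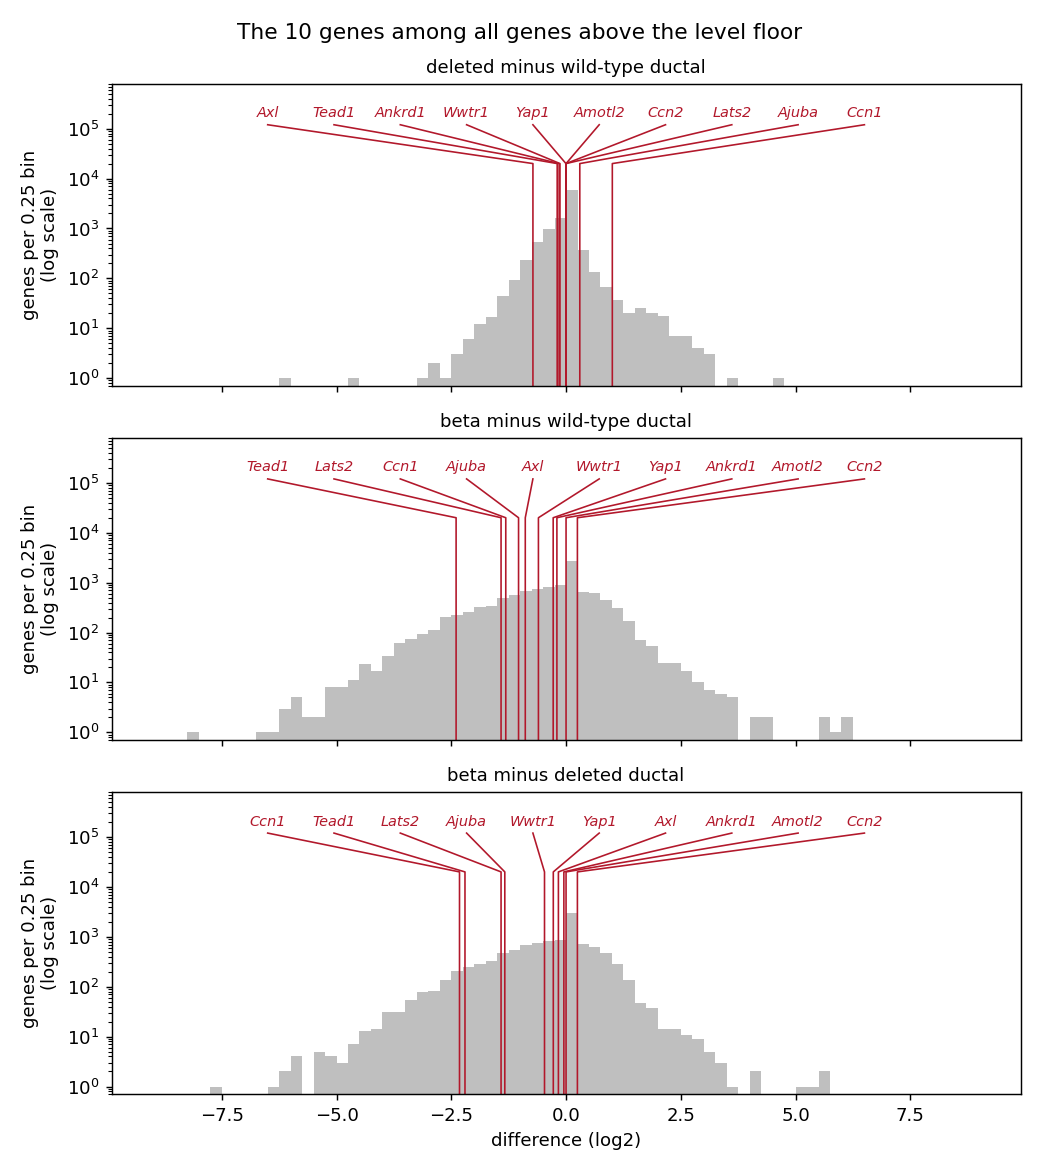
Number of genes (y axis, log scale) per 0.25 of log2 difference (x axis) in the 3 comparisons, with the 10 genes marked by red lines. Between the ductal arrays Ccn1 (1.01) and Axl (-0.72) lie furthest from 0 among the 10 genes. In both beta cell comparisons the 10 genes lie within the broad body of the distribution, from -2.40 (Tead1) to 0.25 (Ccn2).

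With deleted ductal cells in place of wild-type ones, beta cells had the same 4 genes 2-fold or more lower by measured levels, and 2 of them, Ccn1 and Tead1, with levels raised to the floor. Of 11095 genes 23.0% were lower and 5.13% higher by 2-fold; both beta comparisons share the beta cell array. Ccn1 read 7.37 in beta and 9.69 in deleted ductal cells, 5.00-fold lower (-2.32), and stayed lower at -1.31 after quantile normalization and -1.01 with the level trend removed. Tead1 was at -2.20, or -1.29 with the level trend removed, with 6.42% of genes at least as far on the lower side as deposited, and its second probe set at -1.65. Lats2 was at least 1.90-fold and Ajuba at least 1.74-fold lower against the floor, with measured differences of -1.42 and -1.33. As deposited, Ccn1 and both Tead1 probe sets exceed the 1.57 that bounds 90% of gaps between probe sets. The values of Lats2 and Ajuba lie within it. So do the -1.31 and -1.01 of Ccn1 and the -1.29 of Tead1, although the 1.57 was taken from deposited values. As deposited the remaining members lay between -0.47 (Wwtr1) and 0.25 (Ccn2). With the level trend removed Wwtr1 turned to 0.43 and Axl, at -0.17 as deposited, to 0.59, while Ccn2 stood at 0.64.

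The kinase core read lower in beta cells than in wild-type ductal cells as deposited. Of 13 genes 9 were lower and 4 identical, with a median of -0.77, where 53.8% of all genes were lower and 18.9% identical with a median of -0.11. By measured levels 4 genes were at least 2-fold lower, a share near the 25.8% of all genes: Mob1a, a coactivator of Lats kinases (6.63-fold), its paralog Mob1b (2.77-fold), Lats1 (2.70-fold) and Taok1 (2.90-fold). With the level trend removed the median was -0.40 and Mob1a alone, at -2.38 after quantile normalization and -2.10 without the trend, was still 2-fold apart. Among the partners of Yap and Tead, Ptpn14, a phosphatase that binds Yap, read 5.08 in beta and 8.23 in wild-type ductal cells. It was at least 7.60-fold lower against the floor as deposited. Its measured difference, to which no floor was applied, was -3.15 as deposited and -2.54 with the level trend removed. The median of this list turned, being -0.24 as deposited and 0.39 after quantile normalization.

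Over all genes 53.8% were lower in beta cells than in wild-type ductal cells and 25.8% at least 2-fold lower. Of 13 other Yap targets 11 were lower and 2 identical. Their median was -0.87 as deposited and -0.22 with the level trend removed. The 6 that were at least 2-fold lower were Tgm2 (-3.47), Thbs1 (-2.34), Myof, a membrane repair protein (-2.16), Crim1 (-1.43), Igfbp3, which binds insulin-like growth factors (-1.39), and Gadd45b (-1.15). With the trend removed Tgm2 stood at -1.93 and Myof at -1.36, and the other 4 lay within 2-fold. Mesothelial genes, which read high in the ductal arrays, were lower in beta cells in 14 of 14 with a median of -4.47. Of 15 measured, 8 were above the floor in beta cells. Upk1b, Lrrn4, Muc16, Gpm6a, Bnc1 and Aldh1a2 entered through the ductal array, which set their direction. Mesenchymal genes were lower in 13 of 15 with a median of -1.92. Tgm2, Thbs1 and Tead1 are widely expressed in mesothelial and mesenchymal cells, and the part of these cells in their levels was not tested.

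Genes of like pattern were sought by the largest gap in the deleted-minus-wild-type and beta-minus-wild-type differences over the 3 arrays, among 10732 genes. For Ccn1 the nearest were the interferon gene Ifit3 (gap 0.01), the polymerase subunit gene Polr2i (0.12) and Rmrp (0.13), and 1 gene lay within 0.1. For Ccn2, Enox2, Urgcp and Ctdp1 had the smallest gaps, with 377 genes within 0.1. For Yap1, Bbs9, Get4 and Ing3 shared the smallest gap (0.0025), with 379 genes within 0.1. These counts follow from the differences given above and add no separate result. Of 10035 genes 48.2% were identical between the ductal arrays, while 1.41% were at least as far higher as Ccn1. Only deposited values were used, and the beta-minus-wild-type difference of Ccn1 turned with the level trend removed.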

How the data were processed

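RNA was measured on 3 arrays, 1 per group, and the deposited values are log2 intensities per probe set, made by the authors with RMA per the submitters' processing notes. Neither a version of RMA nor the set of arrays normalized with it was stated in the labels. The platform annotation named 1 gene for 21789 of 35556 probe sets, several for 1621 and none for 12146; 21698 of the first matched a RefSeq gene ID (GRCm38.p6), and for the 999 genes with several probe sets the one with the highest mean was used. Log2 levels were subtracted for each of 3 array pairs, with 2-fold as the threshold for counts. No test is possible with 1 array per group, and the number of arrays limits the precision. The named genes are the 10 members and, of each list, the 2 highest, the 2 lowest and those 2-fold apart; levels and other genes named for a check were chosen after their values were seen. Members and lists were chosen with earlier results of these data known. For likeness, predicted genes and receptor and immunoglobulin families were left out. The alternatives tried were a floor at the 75th percentile or none, quantile normalization, centring, a loess level trend (span 0.3), the mean of probe sets, levels raised to the floor, and 1.5-fold and 4-fold thresholds; the same scalings of the lists were chosen after seeing the data. The steps were tested on simulated data. The computation ran in Python 3.11.15 (pandas 2.3.3, numpy 2.4.6, matplotlib 3.10.9 and statsmodels 0.14.6).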

Additional observations from a re-analysis of the deposited data

How the results depend on the processing

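No paired analysis was possible because each group has 1 array. Between deleted and wild-type ductal cells the count of the 10 genes at least 2-fold apart was 1 under all scalings and floors tried, 2 at a 1.5-fold threshold (Ccn1 and Axl) and 0 at 4-fold. Between beta and wild-type ductal cells the count of 4 became 3 after quantile normalization and 3 with the level trend removed (without Ccn1 in both), 6 at a 1.5-fold threshold, 2 with a floor at the 75th percentile (which left 7 of the 10 genes), 2 with levels raised to the floor and 1 at 4-fold. Between beta and deleted ductal cells the count of 4 became 2 with that floor, 2 with levels raised to the floor and 2 at 4-fold, and was 4 under the other settings tried. Ccn1 between beta and wild-type ductal cells turned from -1.31 to 0.14 with the level trend removed, the trend at its level being -1.45. Of 150 differences of single genes under 5 alternatives, 135 moved by less than the SD between probe sets of a gene. Another 14 moved by more and 1, that of Ccn1, turned from a value past 2-fold. Most of the 135 could hardly move. The mean of probe sets can change only Tead1, raising to the floor only Lats2 and Ajuba, and centring shifts all genes alike. The larger moves all came from the beta cell comparisons, under quantile normalization or with the level trend removed. In all 18 changed sign under quantile normalization or with the level trend removed, 17 of them from values within 2-fold, of Yap1, Wwtr1, Axl and Ankrd1. Without array replicates, differences within the gaps between probe sets cannot be read as changes.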

Other observations

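The ligand of Axl stood apart from its receptor. Gas6, the secreted ligand of the Axl family, read log2 6.70 in beta, 10.46 in deleted and 10.36 in wild-type ductal cells. It differed by 0.10 between deleted and wild-type ductal cells. In beta cells it was 12.6-fold lower than in wild-type ductal cells (-3.66, and -2.11 with the level trend removed). Pros1, which encodes protein S, the other ligand of this receptor family, read 7.25 in deleted and 8.13 in wild-type ductal cells (-0.88). The related receptors Tyro3 and Mertk read below the floor in all 3 arrays.

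Of the other CCN family genes, Ccn5 read 6.56 in beta cells, against 5.56 in deleted and 5.56 in wild-type ductal cells. It was 2.01-fold higher in beta cells as deposited. Its log2 difference from wild-type cells was 1.47 after quantile normalization, 1.25 with the level trend removed and 0.93 with each array centred. All these values lie within the 1.76 that bounds 90% of gaps between probe sets. Ccn3 read 6.14 in beta, 5.95 in deleted and 6.16 in wild-type ductal cells. Ccn4 and Ccn6 were below the floor in all 3 arrays, so Ccn1 was the CCN gene furthest apart between the ductal arrays among the 4 that were above the floor.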
